A study of Mus musculus with 258 samples.

Results

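The loops described here are 1597 chromatin loops that were called in activated mouse B cells and whose anchors both lay away from every anchor called in resting B cells. They were chosen by the positions in the authors' deposited loop lists: an autosomal activated loop was taken when its anchors were over 50 kb and at most 500 kb apart, when no resting loop had both anchors within 20 kb of it, and when each of its anchors lay more than 20 kb from any resting anchor on that chromosome. They make up 1597 of the 3384 autosomal activated loops of that length (47.2%) and of 4315 activated loops in all. Because presence in the lists and the distance from resting anchors chose the members, this share and all values on that distance given below are descriptions of the lists, with no test, and they support no further statement.

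In Hi-C, crosslinked chromatin is cut and religated inside the nucleus, and the ligated pairs are counted as contacts between positions. Wild-type C57BL6/J mice aged 6 to 8 weeks gave splenic B cells, which were purified by negative selection. Resting cells were taken at 0 h, and activated cells after 72 h of culture with lipopolysaccharide at 50 µg/mL, interleukin 4 at 2.5 ng/mL and an antibody against CD180 (RP105) at 0.5 µg/mL. The labels give 8 resting and 26 activated Hi-C libraries among 258 samples, but each state has 1 loop list from a pooled map, so there was no replicate and no difference between the states could be tested. It is not stated whether every library entered its map, and a loop missing from a list was not called, which does not show it to be absent. A contact made in more of the cells and a contact made more often in each cell cannot be told apart in a pooled map. No expression values were used, so the cells were not checked against B cell markers.

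A loop in such a map is a pair of positions that meet more often than their surroundings. In mammalian cells most loops are held by cohesin, a ring complex that extrudes chromatin until it meets the DNA-binding protein CTCF, usually at a pair of CTCF sites that face each other. Loops of this size range frame domains and can bring enhancers near promoters, and resting lymphocytes are known for compact chromatin that opens when the cells are activated. Genes and CTCF sites at the anchors were not analysed here, because the coordinates are on build mm9 and the reference tables used here are on another build.

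By this rule, members were 64.9% (exact binomial 95% interval 63.0 to 66.8) of the 2461 activated-only loops of 50 to 500 kb. The other 864 activated-only loops used at least 1 resting anchor, 712 of them 1 and 152 of them a pair. The remaining 923 activated loops of this length had a partner in the resting list and are called kept loops here. With the lists exchanged, 81 of 1219 resting loops met the same condition (6.64%), which was 26.6% (21.7 to 31.9) of the 305 resting-only loops. The lists offer unequal room for this: 5.70% of the 5 kb positions between the outermost autosomal anchors lay within 20 kb of a resting anchor and 12.0% within 20 kb of an activated anchor. The intervals here and below cover counting error only.

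Members were spread over the whole length range, with a median of 160 kb between the anchors (quartiles 100 and 250 kb, range 55 to 495 kb). The 81 resting counterparts were shorter, with a median of 85 kb, and 54 of them spanned 50 to 100 kb, 22 spanned 100 to 200 kb and 5 spanned 200 to 500 kb. The members by the same lengths numbered 405, 628 and 564. All autosomal resting loops of these lengths numbered 459, 481 and 279, and all activated ones 937, 1346 and 1101. The lists as a whole thus differed in length in the same direction. Kept loops had a median of 130 kb, and activated-only loops with a resting anchor had the members' median of 160 kb. Among activated loops of 50 to 75 kb, 42.8% (38.1 to 47.6) were members. The share was 47.4% (43.3 to 51.6) for loops of 150 to 200 kb and 55.6% (47.8 to 63.2) for those of 400 to 500 kb. It was higher in each successive bin of length, although neighbouring bins had overlapping intervals. Kept loops went the other way, from 36.4% of the shortest bin to 17.2% of the longest.

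**Figure D1:**
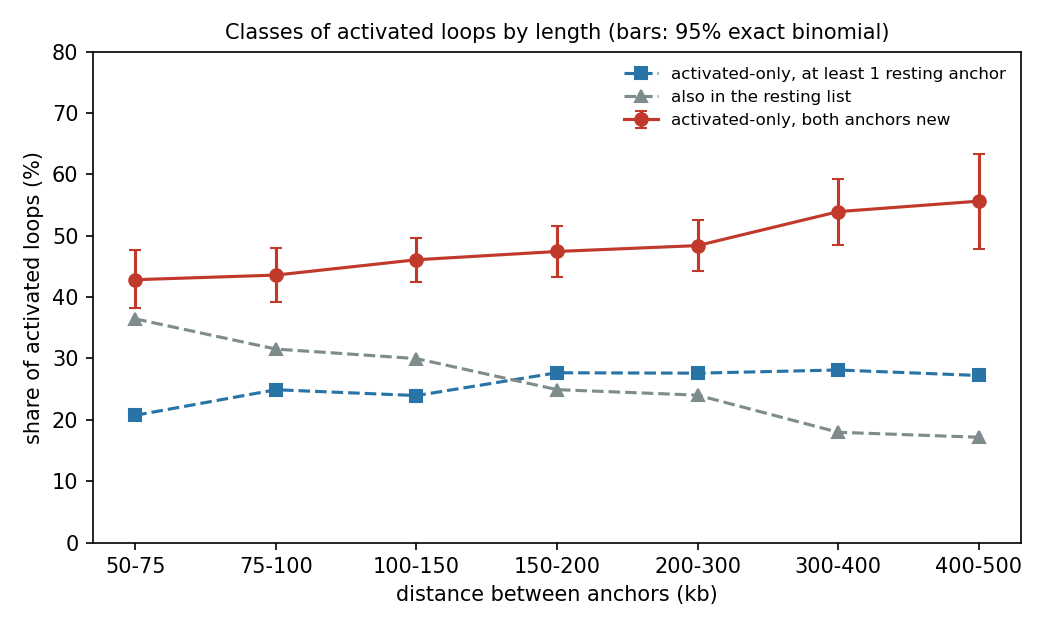
Share of autosomal activated loops (vertical axis, %) in each of the 3 classes against the distance between anchors (horizontal axis, kb), with exact binomial 95% intervals on the members only. Members are 42.8% of the shortest bin and 55.6% of the longest, while kept loops go from 36.4% to 17.2%.

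Members rested on fewer contacts than kept loops, while their enrichment over the local background differed much less. The median member had 56 observed contacts at its 5 kb pixel (quartiles 43 and 73, range 17 to 187), against 63 for activated-only loops with a resting anchor and 93 for kept loops. The contacts expected from the donut background, the ring of pixels around the loop, had medians of 19.9, 22.9 and 30.6. The ratio of observed to donut-expected contacts, used here as the strength of a loop, had a median of 2.84 in members (quartiles 2.42 and 3.35), 2.77 in activated-only loops with a resting anchor and 3.01 in kept loops. Quartile ranges of the strength overlapped widely between all 3 classes.

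Length has to be held in view in this comparison, because observed contacts fall and the ratio rises with distance. The median strength of members and of kept loops was 2.32 and 2.63 in the class of 50 to 100 kb. It was 2.80 and 3.18 in the class of 100 to 200 kb, and 3.25 and 3.51 in the class of 200 to 500 kb. The members' medians were thus below those of kept loops in each of these 3 classes and close to those of activated-only loops with a resting anchor, whose medians were 2.36, 2.75 and 3.18. Against the other backgrounds the members' median strength was 2.74 (lower left), 2.34 (horizontal) and 2.38 (vertical).

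Kept loops also had more neighbouring enriched pixels merged into them. The median was 9 merged pixels in kept loops and 3 both in members and in activated-only loops with a resting anchor. Loops of at least 10 pixels made up 8.45% (7.14 to 9.93) of members, 9.61% of activated-only loops with a resting anchor and 45.0% of kept loops. A total of 189 members (11.8%) consisted of 1 pixel, as did 91 of the 864 activated-only loops with a resting anchor and 3.79% of kept loops. The q-values in the authors' deposited table, the false discovery rates against each background, were at most 0.01 in all 4 backgrounds for 1048 members (65.6%), for 68.1% of activated-only loops with a resting anchor and for 87.3% of kept loops. Kept loops had to be called in both lists and members in only 1 of them, a difference that the choice of the classes brings with it.

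**Figure D2:**
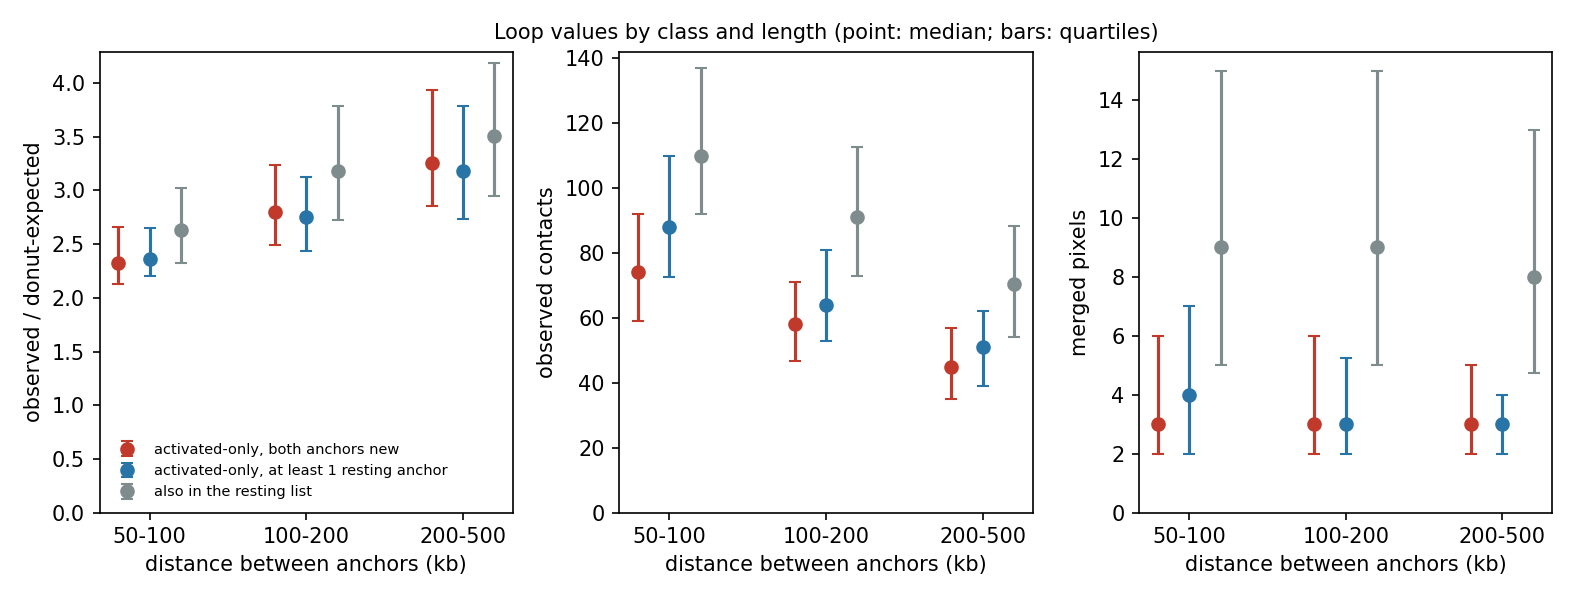
Median (point) and quartiles (bars) of the ratio of observed to donut-expected contacts, of the observed contacts and of the merged pixels (vertical axes of the 3 panels) in 3 bins of anchor distance (horizontal axes, kb) for the 3 classes. Members had medians of 74, 58 and 45 contacts in these bins and kept loops 110, 91 and 70.5, while the ratios of the classes lay closer together.

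Expected contacts were higher in the activated map than in the resting map, and this ratio was used as an estimate of relative depth. At the 923 kept loops the donut-expected count was 1.52 times that of the resting partner in the median (quartiles 1.28 and 1.82). Divided by this ratio, 1512 members (94.7%) still reached the lowest contact count and the lowest ratio seen among resting loops of their length. At the 5th percentile of the resting values 862 remained (54.0%), and at the resting medians 105 (6.57%, 5.41 to 7.90). Members were 46.3% of all activated loops that reached the lowest values and 37.5% of those that reached the 5th percentile, against 47.2% without a limit. Count and ratio both had to reach each limit, and the number of resting loops that reach both medians is not given here. From the shortest to the longest of the same 3 length classes, the members' median scaled contacts were 48.7, 38.2 and 29.6, against resting medians of 66, 54 and 46. How many of these loops a resting map of equal depth would hold was not tested.

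Members were found on all 19 autosomes. Chromosome 2 had the most, 148, and chromosomes 16 and 19 the fewest, 46 each. Their share of an autosome's activated loops ran from 38.0% (29.3 to 47.3) on chromosome 16 to 56.1% (45.7 to 66.1) on chromosome 18, and the interval of each of the 19 autosomes held the overall share. Their number per Mb, measured from the start of the chromosome to the last anchor, varied more, from 0.412 on chromosome 14 to 1.11 on chromosome 11, with a median of 0.629. Resting loops per Mb were also lowest on chromosome 14, at 0.339, and highest on chromosome 11, at 0.847.

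**Figure D3:**
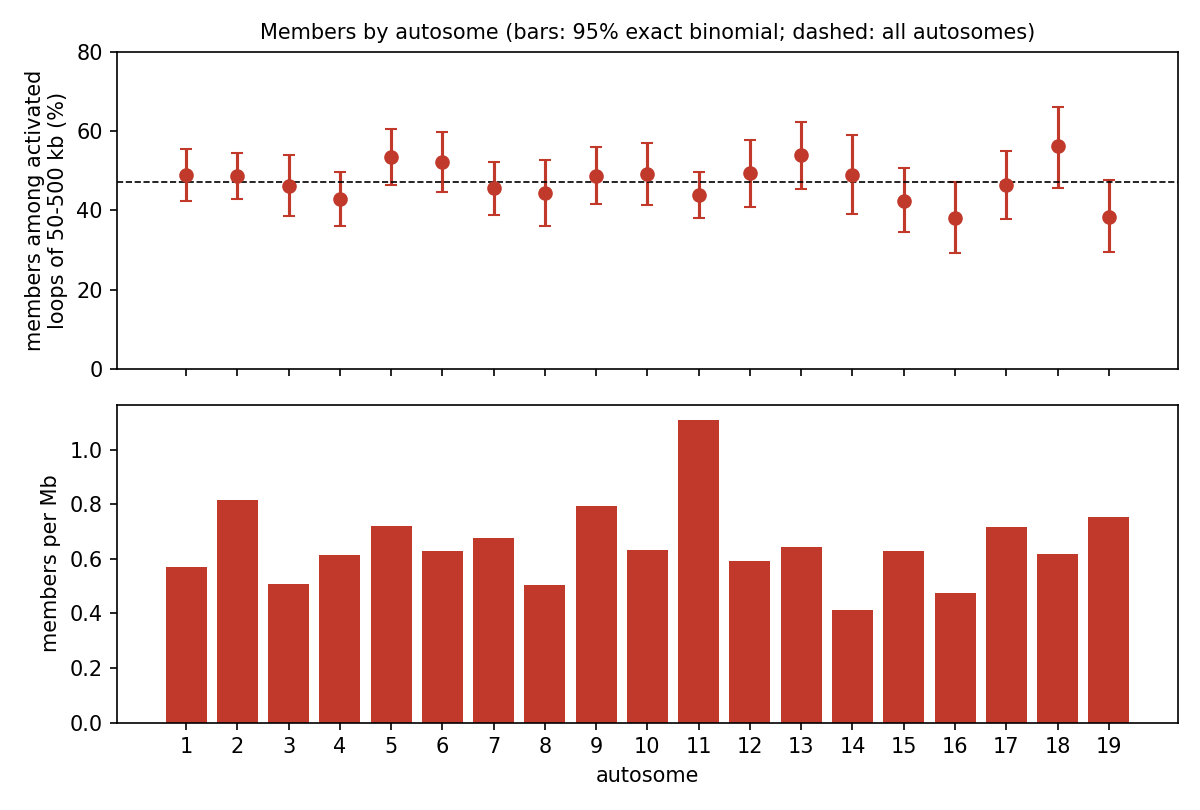
Share of each autosome's activated loops of 50 to 500 kb that were members (upper panel, %, with exact binomial 95% intervals and the overall share of 47.2% dashed) and members per Mb (lower panel), by autosome on the horizontal axis. The shares lie between 38.0% and 56.1% around the dashed line, while chromosome 11 stands highest per Mb at 1.11.

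The rule keeps both anchors of a member out of the 20 kb around resting anchors. It also leaves out anchors farther away whose partner lies at a resting anchor, as in 712 activated-only loops. Loops here are at most 500 kb long, so this acts mainly on the nearer distances, and the densities there are partly set by the rule. Over all autosomal sequence farther than 20 kb from a resting anchor there were 1.43 member anchors per Mb, from 3194 anchors in 2232 Mb. The density was 2.02 per Mb at 20 to 50 kb, 2.50 per Mb at 100 to 200 kb and 2.35 per Mb at 200 to 500 kb from the nearest resting anchor. Farther out it was 1.59 per Mb at 500 to 1000 kb, 0.917 per Mb at 1000 to 2000 kb and 0.586 per Mb beyond 2000 kb. Sequence beyond 2000 kb made up 28.1% of the total and held 11.5% (10.4 to 12.7) of the member anchors. The anchors of a member come as a pair and lie close to each other, so these shares are less certain than their intervals say.

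**Figure D4:**
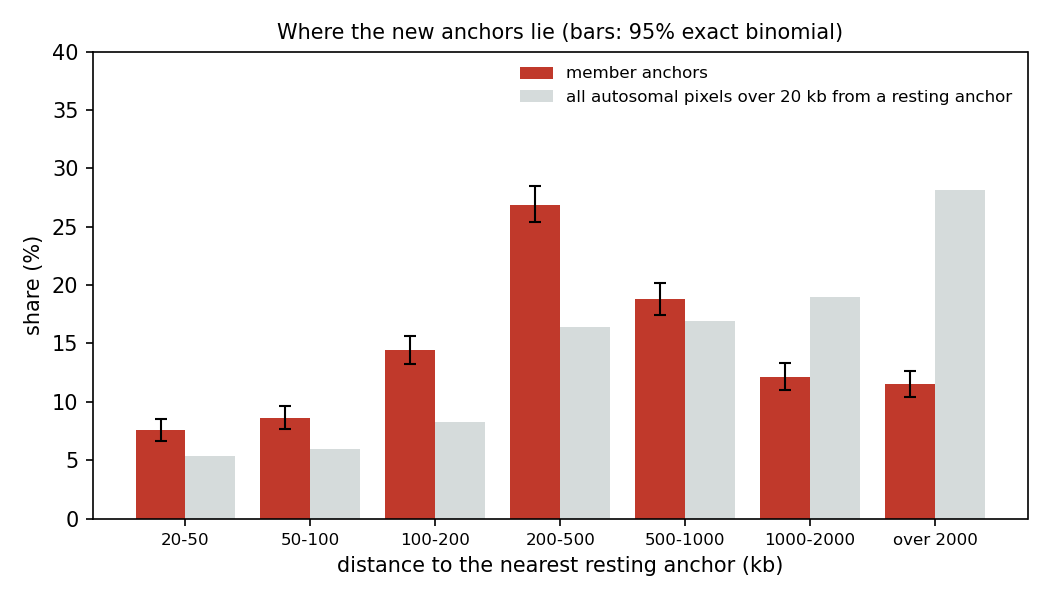
Share of the 3194 member anchors (red, with exact binomial 95% intervals) and of all autosomal 5 kb positions over 20 kb from a resting anchor (grey) in bins of distance to the nearest resting anchor (horizontal axis, kb). Red exceeds grey up to 1000 kb and is below it beyond, with 11.5% of anchors against 28.1% of positions over 2000 kb.

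Measured loop by loop, the nearer anchor of a member lay a median of 295 kb from a resting anchor (quartiles 90 and 835 kb). For 231 members (14.5%) the nearer anchor was within 50 kb, and for 342 (21.4%) it was more than 1000 kb away. The median strength was 2.67 with 61 contacts in the 231 nearest members and 3.05 with 51 contacts in the 342 farthest, and the quartiles of these groups, 2.32 to 3.27 and 2.58 to 3.62, overlapped.

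Few members overlapped a resting loop, which the rule itself favours, since it keeps their anchors away from resting anchors. Of the 1597, 1508 (94.4%) overlapped no resting loop of any length, 54 held a whole resting loop between their anchors, 29 lay inside a resting loop and 6 crossed the end of one. The 54 members that held a resting loop were long, with a median of 287.5 kb. The 29 that lay inside a resting loop were short, with a median of 100 kb and a median strength of 2.26. A loop that holds another has to be the longer of the pair, so these lengths are partly set by the relation. All members of 50 to 100 kb had a median strength of 2.32. For 1537 members (96.2%) no resting anchor fell between their own anchors.

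Resting anchors and the chromosome ends bounded 619 stretches with at least 1 member, and 78 of them had 5 or more, which together took 511 members (32.0%). Stretches of 0.2 to 0.5 Mb held 0.915 members per Mb, and 90 of these 409 stretches had a member. Members per Mb were highest, at 1.53, in stretches of 0.5 to 1 Mb, and were 1.09 in those of 1 to 2 Mb, 0.728 in those of 2 to 5 Mb, 0.520 in those of 5 to 10 Mb and 0.277 in those over 10 Mb. Most long stretches had a member: 71 of the 75 stretches of 5 to 10 Mb and 30 of the 34 over 10 Mb. Short stretches have less room for a loop of this length away from both ends.

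The fullest stretches with a resting anchor on each side, singled out after the values were seen, had 12 members each. On chromosome 18 the 12 lay between resting anchors at 66675001 and 75530001, with lengths of 60 to 320 kb and 37 to 86 contacts. On chromosome 6 they lay between 52175001 and 66915001, with a median strength of 3.60 and a highest strength of 5.50. On chromosome 9 they lay between 51100001 and 57105001 and were mostly short, with a median of 107.5 kb. In windows of 1 Mb, by the middle of the loop, 937 windows held a member and 12 held 5 or more.

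The window with the most members, from 114000001 to 115000000 on chromosome 5, had 7. They were all of its activated loops in the members' length range, and it had no resting loop in that range. Resting anchors did lie in this window, at 40 kb from the nearest member anchors. These 7 loops spanned 70 to 280 kb, had 40 to 91 contacts and had strengths of 2.57 to 3.72. The strongest of them, chr5:114405001-114500000, had 91 contacts over 9 merged pixels. Its neighbours chr5:114300001-114405000, with 73 contacts, and chr5:114305001-114505000, with 45, met it at both ends, so that a pair of adjacent loops was enclosed by another loop of about their summed length.

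Most member anchors served 1 loop. Anchors within 10 kb of each other were merged, which gave 2855 anchors, and 2545 of them (89.1%) carried 1 member, 282 carried 2, 27 carried 3 and 1 carried 4. Among the 310 anchors with at least 2 members (10.9%), 113 were the left anchor of all their members, 119 were the right anchor of all, and 78 (25.2%) looked both ways. Merged in the same way within their own class, 12.0% of the anchors of activated-only loops with a resting anchor and 7.03% of those of kept loops carried at least 2. Sharing members were longer, with a median of 180 kb against 150 kb, and had a median of 56 contacts like the rest.

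The anchors joined 559 members (35.0%) into groups and left 1038 alone. There were 170 pairs, 47 groups of 3, 17 of 4 and 2 of 5. In 15 sets of 3 anchors each pair of anchors was joined by a member, out of 96 chains in which adjacent members met end to end. In 9 of these 15 closed sets the enclosing loop had the highest strength of the 3, and in 2 it had the lowest. The enclosing loop is always the longest of its set, and the median strength of members rose with length. These counts therefore do not separate enclosing from length. The sets chr11:61760001-62100000 and chr11:61760001-62095000 had the same enclosing loop of 330 kb. The enclosing loops spanned 180 to 465 kb. Such a set on chromosome 10, chr10:41545001-42020000, had strengths of 2.64 at 145 kb, 4.05 at 310 kb and 4.57 at 465 kb, with 54, 70 and 59 contacts.

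Some members shared an anchor with activated loops outside the set, and 858 (53.7%) shared none with any autosomal activated loop, member or not. A total of 266 members (16.7%) had an anchor within 10 kb of an activated loop that was no member: 96 met an activated-only loop with a resting anchor, 96 a loop over 500 kb, 88 a loop of up to 50 kb and 3 a kept loop. The rule itself holds members away from kept loops, whose anchors lie within 20 kb of resting anchors. It does the same at the resting anchors used by the other activated-only loops. The matching shares for the other classes are not given here. Members inside an activated loop of over 500 kb numbered 110 (6.89%), a share near that of kept loops (7.58%) and of activated-only loops with a resting anchor (8.45%).

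The anchor with 4 members was chr11:67455001-67475000, also singled out after the values were seen. It was the right anchor of 3 members and the left anchor of 1. The 3 on its left had lengths of 270, 235 and 120 kb with 51, 58 and 80 contacts. The 1 on its right spanned 115 kb with 67 contacts. All 4 had strengths between 2.35 and 3.15, and their anchors were 705 to 1105 kb from the nearest resting anchor.

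The largest groups show how members chain together. On chromosome 11, 5 members tied 4 anchors into a network at chr11:61760001-62100000, with no resting anchor inside and the nearest resting anchor 285 kb away. The outer anchors were joined by a loop of 330 kb with 33 contacts and a strength of 3.48. The left anchor also met the inner anchors, in loops of 95 kb with 94 contacts and of 175 kb with 51 contacts. The right anchor met the same inner anchors, in loops of 235 kb with 82 contacts and of 150 kb with 94 contacts. The last of these, chr11:61940001-62095000, was the strongest, at 3.75 (exact Poisson interval 3.03 to 4.59, the expected count taken as fixed), with 12 merged pixels. Of the 6 possible pairs of these anchors, the pair of inner anchors was the one without a member.

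A second group of 5 lay at chr19:24370001-24950000 and had 6 anchors. From its left end 3 loops of 170, 255 and 315 kb fanned out to the right, with 72, 83 and 58 contacts and strengths of 3.45, 2.76 and 3.06. From its right end 2 loops of 165 and 255 kb, with 72 and 50 contacts, reached back to the left. The longest of the first fan and the longest of the second met at a middle anchor, so that the fans face each other. The group at chr1:40055001-40600000, taken from the 17 groups of 4 by chromosome order, lay 2360 to 2600 kb from resting anchors at its ends. Its loop of 75 kb had 119 contacts and a strength of 2.27, and its loop of 155 kb had 74 contacts and the highest strength of the group, 3.96 (3.11 to 4.97).

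**Figure D5:**
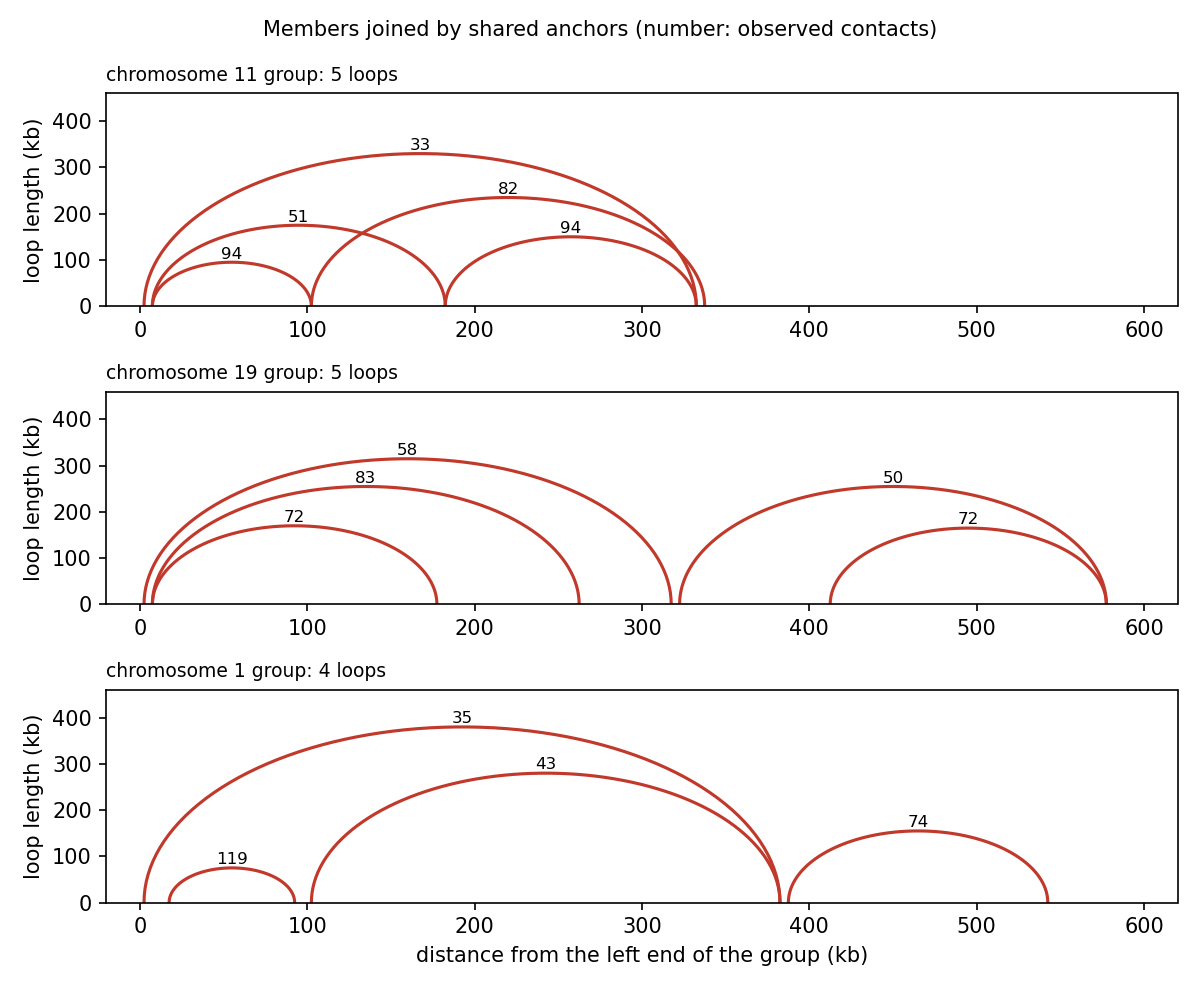
The 3 named groups of members joined by shared anchors, drawn as arcs from the left end of each group (horizontal axis, kb) with the height of an arc equal to the length of the loop (vertical axis, kb) and its observed contacts above it. The chromosome 11 group closes into a network of 5 loops on 4 anchors, the chromosome 19 group forms opposed fans, and the chromosome 1 group runs from 119 contacts at 75 kb to 35 contacts at 380 kb.

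The strongest members with at least 30 contacts had low backgrounds rather than high counts. The highest strength was 15.1 (10.7 to 20.7) at chr4:144995001-145175000, where 38 contacts stood over 2.52 expected in 2 merged pixels. The next, chr2:84960001-85405000, had 45 contacts and a strength of 9.24 (6.74 to 12.4). It was followed by chr13:81575001-81905000 with 42 contacts and 8.09 (5.83 to 10.9), and by chr2:109740001-110050000 with 45 contacts and 8.04 (5.86 to 10.8). The interval of the strongest loop overlapped those of these 3, which also overlapped each other, and the order of the 4 was not tested.

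The fifth, chr4:88790001-89195000, stood apart in its contacts: 80 over 10.2 expected gave 7.82 (6.20 to 9.73), in 11 merged pixels, and its anchors were 5530 and 5930 kb from the nearest resting anchor. The other 5 were chr7:109655001-110070000 (6.59), chr15:25925001-26260000 (6.50), chr6:103255001-103635000 (6.03, with 15 merged pixels), chr7:81165001-81505000 (5.90) and chr14:123350001-123715000 (5.64, from 1 pixel). All 10 spanned 175 to 440 kb. Among all members 43 (2.69%) had a strength over 5, against 1.27% of activated-only loops with a resting anchor and 3.79% of kept loops. Fewer than 5 expected contacts were found in 18 members (1.13%), and in 0.463% and 0.108% of these other classes.

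A minimum of 30 contacts matters for this ranking. Without it the top member would be chr4:114975001-115095000, noticed after the values were seen, with 22 contacts over 1.34 expected. Its strength of 16.4 had an interval of 10.3 to 24.8 and came from 1 pixel, and the interval held the value of the strongest loop named above.

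The members with the most contacts were short. The highest count, 187 (161 to 216), was at chr11:53955001-54070000, a loop of 110 kb with a strength of 4.85 and 14 merged pixels. The highest of its 4 q-values in the authors' deposited table was 3.8e-32. No other member had a lower value for the highest of its 4 q-values. The loop lay 295 and 405 kb from the nearest resting anchors. It was followed by chr4:137285001-137355000 with 174 contacts (2.74), chr15:78275001-78365000 with 159 (3.41, in 18 merged pixels), chr4:119630001-119730000 with 151 (2.23) and chr10:79905001-79975000 with 144 (2.40). The loop at chr4:119630001-119730000 was the one of these 5 that lay inside a resting loop, with anchors 40 and 50 kb from resting anchors.

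The longest members, chr10:85430001-85930000 and chr7:126160001-126660000, spanned 495 kb with 41 and 29 contacts and strengths of 3.71 and 4.73. The next 3 were chr6:17055001-17550000 at 490 kb, with chr10:23535001-24025000 and chr13:46405001-46895000 at 485 kb. These 5 had 29 to 41 contacts and strengths of 3.16 to 4.73. The member farthest from any resting anchor, picked after the values were seen, was chr3:157240001-157385000, at 11400 kb for its nearer anchor, with 36 contacts and a strength of 3.09.

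Loops at the edge of the rule show how fine the line is. Positions fall on a 5 kb grid, and 52 members had their nearer anchor at 25 kb from a resting anchor, the smallest distance allowed, while 70 activated-only loops missed the set with the nearer anchor at 20 kb and the farther one beyond it. The member closest to the limit at both ends was chr11:77845001-77990000, with 25 kb at each end, 90 contacts and a strength of 2.10. The next were chr7:97150001-97310000, with 30 kb at each end and 92 contacts, and chr11:100945001-101040000, with 30 and 35 kb and 91 contacts. Just outside lay chr17:32010001-32145000 with 72 contacts (2.00), chr10:19430001-19615000 with 47 (4.02) and chr11:102160001-102300000 with 115 (3.33), the first of these pairs of anchors at 20 kb each, the second likewise and the third at 20 and 25 kb.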

How the data were processed

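Hi-C loop lists of resting and activated mouse splenic B cells were used, 1 list per state. The submitters' processing notes name BWA and Juicer and the build mm9. Software versions, like the loop caller, remain not given in the sources used here. Each loop carries, per the file headers, an observed contact count (a whole number, not normalized by the authors), expected counts from 4 local backgrounds, a q-value against each background and a count of merged pixels. The lists hold loops that passed the authors' limits.

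Length was the distance between anchor starts. Strength was the observed over the donut-expected count. Coordinates are 1-based on mm9, from the left edge of the left pixel to the right edge of the right one. The activated list names no time point and was taken as the 72 h state from the deposited description of the maps. Relative depth was the median ratio of donut-expected counts at kept loops. Shares have exact binomial and contacts exact Poisson 95% intervals, and no test was made. Library totals were not used here, so contacts per loop (lowest 14 in the activated list) give the depth. The rule for the classes was checked on simulated lists and the merging of anchors on small examples, and the other steps had no such check. All calculations used Python 3.11.15, pandas 2.3.3, NumPy 2.4.6 and SciPy 1.17.1.

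Loops were named when among the 10 strongest with at least 30 contacts, the 5 with most contacts, the 5 longest, in the 3 largest groups, or the 3 just inside and 3 just outside the 20 kb limit. Others are marked as chosen after their values were seen. The members and the naming rule were chosen with earlier results of these data known. The other 224 samples, and gene lists that needed an mm9 annotation, were not analysed here. Alternatives changed the tolerance, q-values, pixels, lengths, backgrounds, merging, depth and autosomes.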

Additional observations from a re-analysis of the deposited data

How the results depend on the processing

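Of 47 alternative values, 34 stayed within their counting interval, or for numbers of loops within 1.5 times, and 13 moved. The 34 include the shares with each of the 19 autosomes left out in turn, which take away little of the list. An anchor tolerance of 10 kb or 40 kb gave a share of members among activated loops of 52.2% or 42.2%. With q-values of at most 0.01 in all 4 backgrounds, 1048 members were left, at 42.9% of such activated loops. With activated counts divided by the depth ratio, the lowest resting values kept 1512 members. Their 5th percentile, an alternative added after seeing the data, kept 862 members, at 37.5% of the activated loops left. When the resting list alone was held to q-values of at most 0.01, also added after seeing the data, the share was 60.0%. Each of the shares just given lay outside the counting interval of the main share, 45.5% to 48.9%. Without each autosome in turn the share was 46.8% to 47.5%, and it could hardly have left that interval. The median strength was 2.74, 2.34 and 2.38 against the lower left, horizontal and vertical backgrounds. Anchors with at least 2 members were 8.81% when merged within 5 kb and 13.7% within 20 kb. The depth ratio was 1.57 from the lower left background. The median length was 160 kb under each of the 3 alternatives tried. No paired analysis was possible because each state has 1 pooled list. The number of members at equal depth of both maps was not tested.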

Other observations

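The same anchor condition was applied to activated loops of other lengths and chromosomes, with no test. Among autosomal loops of up to 50 kb, 225 of 544 (41.4%, exact binomial 95% interval 37.2 to 45.6) stood on anchors away from all resting anchors. Among those over 500 kb, 186 of 281 did (66.2%, 60.3 to 71.7). The interval of the short loops overlaps that of loops of 50 to 75 kb, and the interval of the long loops overlaps that of loops of 400 to 500 kb. On chromosome X 34 of 45 loops of 50 to 500 kb met the condition (75.6%, 60.5 to 87.1), and on chromosome Y 0 of 21 did, which allows a share of up to 16.1%.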
